A study of Mus musculus with 4 samples.

Results

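The mRNAs of 10 peptide hormones made in the hypothalamus or the pituitary were examined in newborn mouse brain after prenatal exposure to titanium dioxide nanoparticles (TiO2-NP). The genes were Pomc, Gh, Agrp, Trh, Crh, Oxt, Avp, Hcrt, Pmch and Cartpt, and every probe whose RefSeq accession belongs to one of them was read. Each gene had 1 probe of 1 spot, which gave 10 of the 20660 genes named on the array and 10 of its 55681 probes that are not controls. Expression was read on 4 one-color oligonucleotide arrays, on which a single Cy3-labeled RNA is bound and a brighter spot means more of the mRNA it captures. The Sham male and Sham female arrays held offspring of C57BL/6J dams (the labels give the strain as C57BL/6) that received 25 μL of vehicle into the trachea, and the vehicle was the particle suspension freed of its particles. The TiO2-H male and TiO2-H female arrays held offspring of dams that received 100 μg of TiO2-NP in the same volume. The treatment protocol places the administration on gestational day 10.5, whereas the sample descriptions give day 14. Brains were taken whole on postnatal day 1, and the sources used here do not state whether the pituitary came with them. Each array held 1 pool of total RNA, for which every dam gave 2 offspring (5 dams for Sham, 6 for TiO2-H), so that no spread between animals was measured.

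The hypothalamus governs the pituitary through peptides. Releasing hormones such as TRH and CRH reach the anterior lobe through portal blood, where they drive the release of hormones such as thyrotropin and the ACTH cut from the Pomc precursor. Oxytocin and vasopressin travel down axons to the posterior lobe and enter the blood there, while AgRP, CART, MCH and the orexins act within the brain on feeding, energy balance and wakefulness. Most of these peptides are made by small groups of neurons, whereas growth hormone is made mainly by the somatotrophs of the anterior pituitary.

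The promoters of 7 of the 10 genes were held in the RefSeq promoter table (assembly GRCm38.p6); Gh, Agrp and Crh were not. The 60 bases before the start site are printed for the members that carried the letters TATAA there on the gene's own strand, with the match in capitals, so that Pomc can be read beside members whose signals did not follow it. They lie at chr12:3954885-3954944 (+ strand, Pomc), chr6:92244651-92244710 (- strand, Trh), chr11:100762932-100762991 (- strand, Hcrt) and chr10:88091012-88091071 (+ strand, Pmch), and each is written from 5′ to 3′.
Pomc: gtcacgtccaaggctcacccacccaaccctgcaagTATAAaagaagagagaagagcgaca
Trh: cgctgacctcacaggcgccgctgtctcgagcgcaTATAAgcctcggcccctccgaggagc
Hcrt: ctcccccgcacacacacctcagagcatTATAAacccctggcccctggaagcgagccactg
Pmch: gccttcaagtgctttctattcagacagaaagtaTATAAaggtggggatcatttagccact
The letters TATAA, known as the core of the TATA box, thus stood in 4 of the 7 windows, beginning 25 bases before the start site in Pomc, 26 in Trh, 27 in Pmch and 33 in Hcrt. Of all 32851 promoters in the table, 5.57% held TATAA in the same window on the gene's strand and 3.34% held it on the opposite strand. In Hcrt a match on the opposite strand overlapped the one shown. The letters TGACGTCA, the palindromic cyclic AMP response element, were searched in the 250 bases before the start site. They were found in Cartpt alone among the 7 members, beginning 112 bases before the start site, and in 1.55% of all promoters. The Cartpt element is shown with its flanks because it set this member apart in sequence, at chr13:99900778-99900805 (- strand), with the match in capitals.
Cartpt: cggcgggcatTGACGTCAaacggcagcg

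All 4 arrays shared 1 slide, and the Sham pair and the TiO2-H pair took different rows of it, so position and exposure cannot be told apart. Their 75th percentiles of processed signal ran from 795 to 871, and 56.2% to 61.2% of spots were well above background. All 6 neuron markers examined (among them Tubb3 and Snap25) were well above background on every array. The sex-linked mRNAs went against the labels of the TiO2-H arrays. Xist, which is transcribed from the inactive X chromosome of females, gave processed signals of 17.9 (Sham male), 276 (Sham female), 347 (labelled TiO2-H male) and 5.36 (labelled TiO2-H female). The Y-linked Eif2s3y gave 3519, 419, 6.40 and 4345 on the same arrays, so that the Sham female array also carried some Y-linked signal. The TiO2-H arrays are therefore called by the labels they carry, and the comparisons are also given with the TiO2-H arrays crossed between the Sham arrays. The robust SD of the log2 ratio over all probes well above background on both arrays was 0.16 for the arrays labelled male, 0.16 for those labelled female and 0.10 between the Sham arrays.

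Pomc and Gh were the members past the thresholds of 1.5-fold or 0.67-fold that the study's methods use, and both lay above 1.5-fold on the array labelled TiO2-H male only. On the arrays labelled male, 2 of the 10 members passed the upper threshold and 0 the lower, while 4.08% of the 33319 probes compared passed the upper and 3.29% the lower. Among probes well above background on both arrays, where Pomc but not Gh belongs, 1.9% passed the upper. On the arrays labelled female, 0 of the 9 members compared passed a threshold, against 5.96% of all probes compared (2.65% above and 3.31% below). Between the Sham arrays, which do not differ in exposure, 0 of 9 members and 6.32% of all probes did so. The median log2 fold change of the members was -0.03 on the arrays labelled male and -0.08 on those labelled female, and that of all probes compared was 0.01 and 0.00. With 1 array per group no test can be made within a sex, and these counts describe 4 pools.

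**Figure D1:**
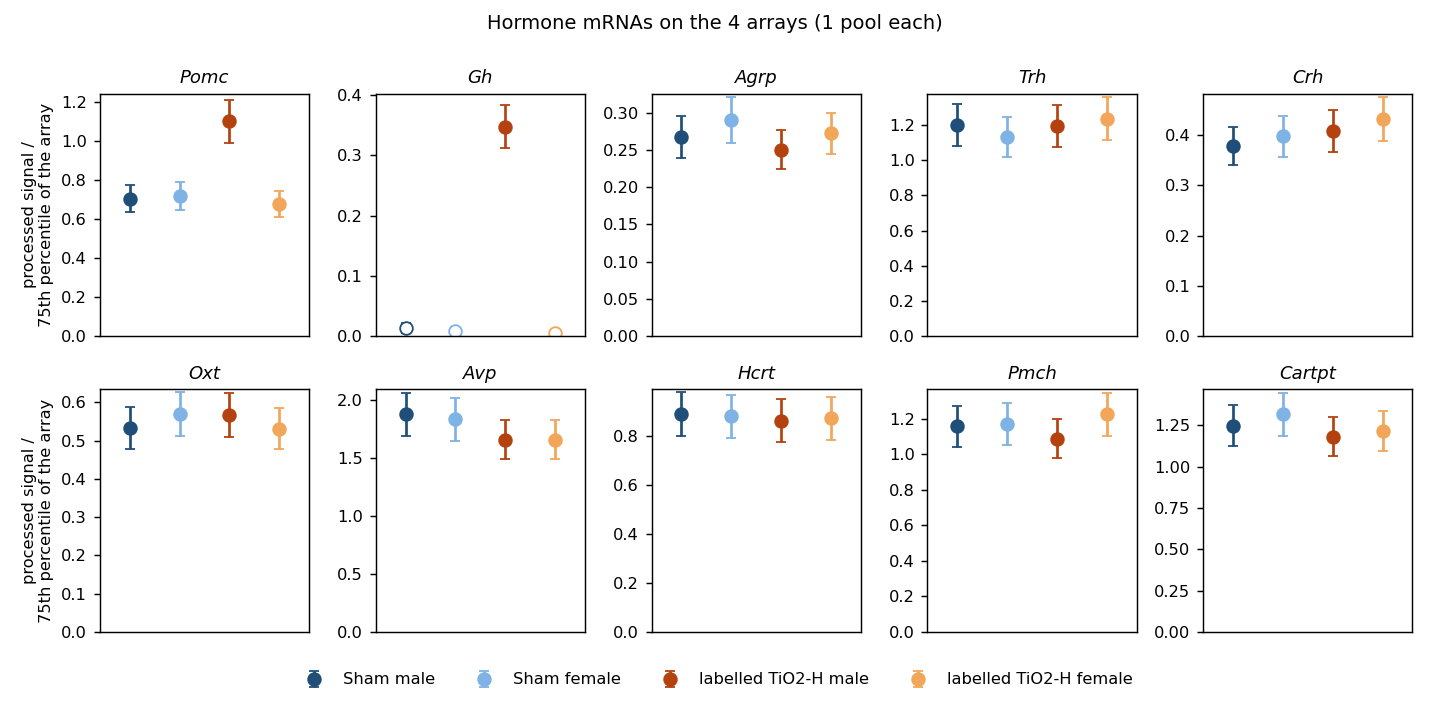
Processed signal of each hormone mRNA divided by the 75th percentile of its array (linear axis from 0, no unit) on the Sham male, Sham female, labelled TiO2-H male and labelled TiO2-H female arrays. Each point is 1 pool, bars are the scanner software's error of the spot, and open points were not well above background; Pomc and Gh stand apart on the array labelled TiO2-H male, and the other 8 mRNAs lie close together on all 4 arrays.

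Pomc encodes the precursor from which ACTH, the melanocyte-stimulating hormones and β-endorphin are cut, and it is expressed in the pituitary and in neurons of the arcuate nucleus. The Pomc probe (NM_008895) had processed signals of 572 (Sham male), 570.5 (Sham female), 956 (labelled TiO2-H male) and 590.3 (labelled TiO2-H female). A single array was thus high and the other 3 lay together. Scaled to the 75th percentile of each array, the log2 levels were -0.50, -0.48, 0.14 and -0.56. The log2 fold change was 0.64 on the arrays labelled male (1.56-fold), with an error of 0.20 from the scanner software, and -0.08 on the arrays labelled female. The change on the arrays labelled male was 4.14 times the robust SD over all probes. When the arrays were crossed, Pomc was 1.54-fold above the Sham female array, where 3.51% of probes passed the upper threshold, and its log2 ratio was -0.06 for the other pair, where 6.75% of probes passed either threshold. The 2 TiO2-H arrays differed from each other by 1.63-fold, and the 3 remaining arrays lay within 0.08 on the log2 scale. Pomc fell just under the threshold (log2 fold change 0.58) when median signals corrected by normexp replaced the processed signals. Of the 29393 probes well above background on all 4 arrays, 0.476% were at least 1.5-fold above every other array on the array labelled TiO2-H male, and 0.704%, 0.602% and 0.34% were so on the Sham male, Sham female and labelled TiO2-H female arrays.

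Gh encodes growth hormone, and its probe (NM_008117) was well above background on 1 of the 4 arrays. Its processed signal was 301 on the array labelled TiO2-H male, and 11.2, 6.44 and 4.76 on the Sham male, Sham female and labelled TiO2-H female arrays, where it was not well above background. The spots' median signals before background subtraction were 421.5 on the former array and 77, 61 and 61 on the latter, over local background medians of 34 to 38. Gh was at least 9.25-fold higher on the array labelled TiO2-H male than on the Sham male array, at least 8.71-fold higher than on the Sham female array and at least 13.0-fold higher than on the other TiO2-H array. These are bounds against the lowest signal among probes well above background on each dim array, with no replicate check. With median signals corrected by normexp, Gh was at least 4.55-fold above the Sham male array. Gh was not compared on the arrays labelled female, as both were dim. On the array labelled TiO2-H male, 918 probes (1.65%) were well above background while the other 3 arrays were not, and 17 of them had a bound of at least 8.71-fold over every other array, which includes Gh. Such a bound was found for 97 of the 597 probes bright on the Sham male array alone, for 94 of 539 on the Sham female array and for 17 of 1661 on the array labelled TiO2-H female.

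Since Gh and Pomc are both made in the pituitary, its other genes were read on the same arrays. Of the 5 other pituitary hormone mRNAs, Prl (prolactin), Tshb, Fshb and Cga (the shared α-subunit of the glycoprotein hormones) were not well above background on any array. Their processed signals were at most 13.0 except for Cga, which gave 32.5 on the array labelled TiO2-H male and 7.84, 8.18 and 5.90 on the Sham male, Sham female and labelled TiO2-H female arrays. Lhb, the β-subunit of luteinizing hormone, gave 123, 101, 147 and 112 on the Sham male, Sham female, labelled TiO2-H male and labelled TiO2-H female arrays, and its log2 fold changes were 0.16 on the arrays labelled male and 0.03 on those labelled female. The summed signal of the 5 genes, without scaling, was 154, 138, 201 and 142, of which Lhb made up most. The sum thus describes Lhb and the dim Cga more than the list. Divided by the 75th percentile of each array, the sums were 0.190, 0.173, 0.231 and 0.163.

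Of 10 genes of the pituitary lineage and of its releasing hormone receptors, 5 were well above background throughout and 5 on no array. The latter included Pou1f1, the transcription factor required for somatotrophs, with 4.86 to 6.64, and Ghrhr, the receptor for growth hormone releasing hormone, with 8.07 to 13.5. Tbx19, a transcription factor required for Pomc expression in corticotrophs, was also among these dim genes, with 8.58, 8.98, 17.0 and 6.40 on the Sham male, Sham female, labelled TiO2-H male and labelled TiO2-H female arrays. None of the 5 measured genes passed a threshold under either label. On the arrays labelled male, 4.08% of all probes compared passed the upper and 3.29% the lower, and on those labelled female 5.96% passed either. With 5 genes, such a count does not set the list apart from all probes. The 5 genes had median log2 fold changes of 0.17 and 0.16 on the arrays labelled male and female. The summed signal over all 10 genes, without scaling, was 814, 781, 1023 and 921 in the same order. Divided by the 75th percentile of each array, the sums were 1.01, 0.98, 1.18 and 1.06. Trhr gave the largest part of the difference between the arrays labelled male. Trhr, the receptor for TRH, gave 284, 269.99, 428 and 339, which placed both TiO2-H arrays above both Sham arrays by log2 fold changes of 0.49 and 0.20 (adjusted limma p 0.388). The part of pituitary tissue in the Gh and Pomc signals was not tested.

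**Figure D2:**
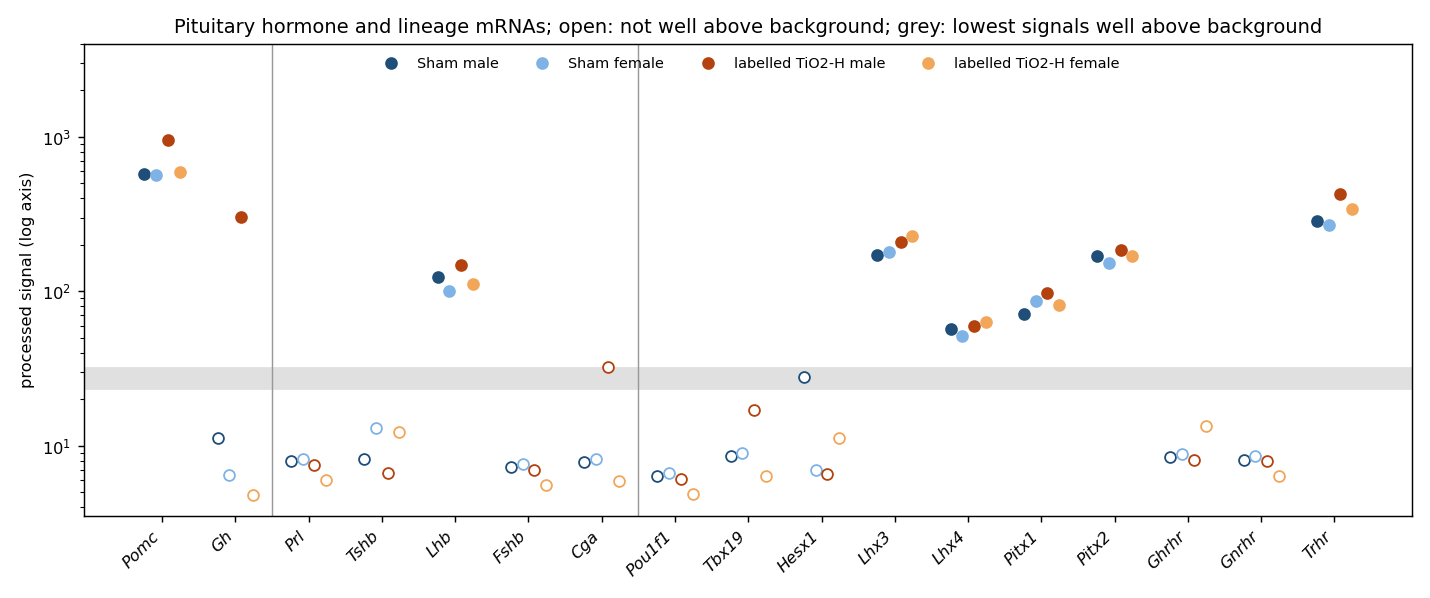
Processed signal (log axis) of Pomc, Gh, 5 other pituitary hormone mRNAs and 10 pituitary lineage and receptor mRNAs on the 4 arrays, 1 point per pool, in the order Sham male, Sham female, labelled TiO2-H male and labelled TiO2-H female. Open points were not well above background and the grey band spans the lowest signals well above background, 23.3 to 31.7; Gh leaves the dim range on the array labelled TiO2-H male, where Cga, at 32.5, was still not well above background.

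The hypothalamic releasing hormones Trh and Crh showed no such single array. Trh encodes thyrotropin-releasing hormone, and its processed signal (NM_009426) was 972, 899.8, 1035 and 1076 on the Sham male, Sham female, labelled TiO2-H male and labelled TiO2-H female arrays. The log2 fold change was -0.01 on the arrays labelled male and 0.13 on those labelled female, beside -0.08 between the Sham arrays. After scaling, the Sham and TiO2-H arrays overlapped. Crh encodes corticotropin-releasing hormone, which stimulates Pomc-expressing corticotrophs, and its signal (NM_205769) was 306, 316, 354 and 376 on the same arrays. Both TiO2-H arrays lay above both Sham arrays, by log2 fold changes of 0.11 under the male label and 0.12 under the female label. Both values were smaller than the robust SD over all probes and than the scanner error of 0.21.

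Oxt and Avp, neighbouring genes on chromosome 2, encode the precursors of oxytocin and vasopressin. Oxt (NM_011025) gave 432, 452, 492 and 463 on the 4 arrays in the same order, and the scaled values of the exposures overlapped. Its log2 fold change was 0.09 on the arrays labelled male and -0.10 on those labelled female. Avp (NM_009732) gave 1518, 1456, 1437 and 1442, and both TiO2-H arrays lay below both Sham arrays. The log2 fold changes of Avp were -0.18 and -0.14 on the arrays labelled male and female, while the Sham arrays differed by -0.03. Both changes were smaller in size than the scanner error of 0.20, and they were -1.14 and -0.92 times the robust SD over all probes. When the arrays were crossed, the log2 fold changes were -0.14 for the labelled TiO2-H male array over the Sham female array and -0.18 for the other pair.

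The peptides that act within the brain on feeding and wakefulness also stayed within the thresholds. Agrp encodes agouti-related peptide, an antagonist of the melanocortin receptors on which Pomc products act, and gave 216, 231, 217 and 237 (NM_007427), with overlapping exposures after scaling. Cartpt encodes the precursor of the CART peptides and gave 1011, 1047, 1024 and 1059 (NM_013732). Its TiO2-H arrays lay below both Sham arrays after scaling, by log2 fold changes of -0.08 and -0.11 on the arrays labelled male and female.

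Pmch, the precursor of melanin-concentrating hormone, which promotes feeding, gave 938, 932, 944 and 1066 (NM_029971). The array labelled TiO2-H female was the highest and the array labelled TiO2-H male, after scaling, the lowest. Hcrt encodes the precursor of the orexins, which stabilize wakefulness, and gave 722, 701, 749 and 759.5 (NM_010410). The scaled values of Hcrt spanned 0.05 on the log2 scale, and its TiO2-H arrays lay below both Sham arrays by log2 fold changes of -0.05 and -0.02.

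For the 8 members other than Pomc and Gh, the log2 fold changes spanned -0.18 to 0.11 on the arrays labelled male, -0.14 to 0.13 on those labelled female and -0.08 to 0.12 between the Sham arrays. Crossing the arrays gave -0.21 to 0.08 for the labelled TiO2-H male array over the Sham female array and -0.18 to 0.19 for the other pair. In bulk RNA of a whole brain, fewer cells that make a hormone and less RNA per cell cannot be told apart. Among the 9 members well above background on all 4 arrays, both TiO2-H arrays were above both Sham arrays for 1 (Crh) and below them for 3 (Avp, Hcrt and Cartpt), while 28.9% and 25.8% of the 29393 probes well above background on all arrays did so. These directions depended on the scaling: without it, the members above were 6 and Avp alone was below, since the 75th percentile was itself higher by 0.10 on the log2 scale on the array labelled TiO2-H male and by 0.13 on the array labelled TiO2-H female than on the Sham array of the same label. The shares of all probes were counted after scaling only, so the member counts without scaling have no background to be read against.

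**Figure D3:**
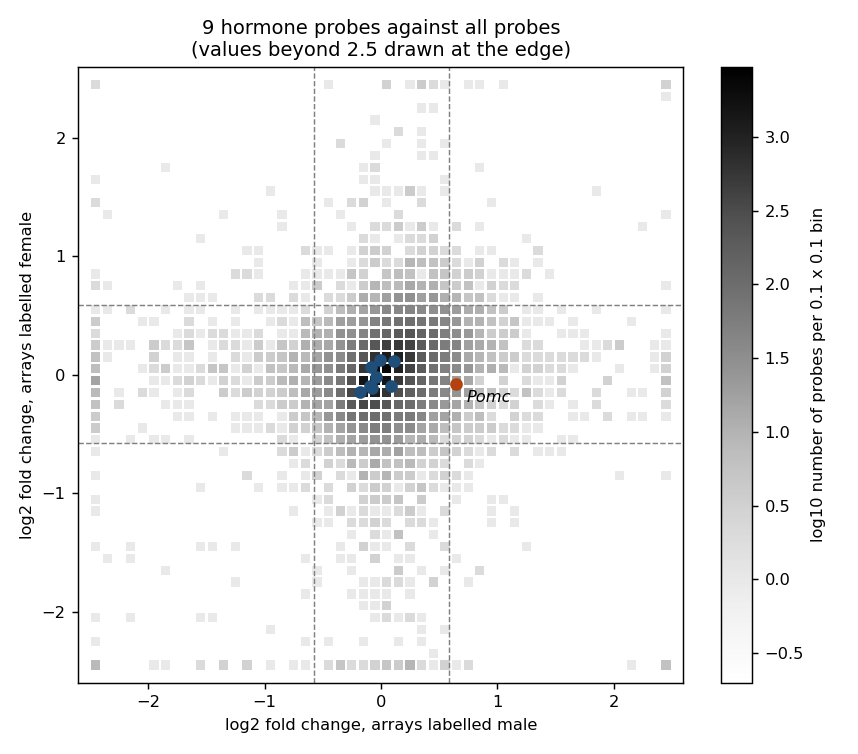
Log2 fold change of TiO2-H over Sham on the arrays labelled male (x axis) and labelled female (y axis) for the 9 hormone probes compared in both (colored points) over all 31755 probes compared in both (grey squares, darker for more probes on a log10 scale). Dashed lines mark the thresholds of 1.5-fold and 0.67-fold; Pomc lies at 0.64 and -0.08 and the other 8 lie near the origin.

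The exposures were tested by limma, 2 TiO2-H against 2 Sham arrays, across 35618 probes, so that an exposure was represented by its male and its female pool. No member and no other probe had an adjusted p under 0.05, and the lowest adjusted p by limma was 0.311. An unadjusted p under 0.05 was found for 4965 probes (13.9%), among them 1 member, Avp. Avp was lower in TiO2-H by 0.16 ± 0.04 on the log2 scale (SE), with an unadjusted limma p of 0.0278 and an adjusted p of 0.351, which ranged from 0.185 to 0.589 over 14 alternative settings. For Pomc the log2 difference was 0.28 ± 0.28, with an adjusted limma p of 0.642 (0.323 to 0.830 over the alternatives). Without the array labelled TiO2-H male the Pomc difference was -0.07, and without the array labelled TiO2-H female it was 0.63, so that it rested on a single pool. The adjusted limma p of Gh was 0.673 (0.147 to 0.845), with 3 of its 4 values set at the floor.

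The differences of the other members ranged from 0.12 ± 0.06 (Crh, adjusted limma p 0.438) through -0.09 ± 0.08 (Agrp, 0.585) to -0.10 ± 0.05 (Cartpt, 0.462). Those of Trh, Oxt, Hcrt and Pmch were 0.06, 0.00, -0.03 and -0.01, with adjusted limma p of 0.623 to 0.978. An exact permutation test with 2 arrays against 2 cannot give a two-sided p below 0.333, and this value was obtained for Crh, Avp, Hcrt and Cartpt.

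Most receptors of these hormones stayed within the thresholds. Of 18 receptor or binding protein genes, 13 were well above background on all 4 arrays. On the arrays labelled male 1 of 14 compared passed the upper threshold and 1 the lower, beside 4.08% and 3.29% of all probes compared. On the arrays labelled female 0 of 14 passed a threshold, beside 5.96% of all probes compared. The median log2 fold change was 0.09 and 0.07. Both TiO2-H arrays lay above both Sham arrays for 6 of the 13 and below for 0, beside 28.9% and 25.8% of all probes. Without scaling the receptor counts were 10 and 0, and no share of all probes was counted for that setting. Mc5r, a receptor for Pomc-derived melanocortins, gave 129, 119.8, 233 and 120.6 on the Sham male, Sham female, labelled TiO2-H male and labelled TiO2-H female arrays. It was highest on the same array as Pomc, by a log2 fold change of 0.75 under the male label, beside -0.12 under the female label (adjusted limma p 0.695). Mc5r is named because its mean absolute change was the largest in the list, and a shared pattern with Pomc was not tested. The melanocortin receptors Mc3r and Mc4r had log2 fold changes of 0.10 and -0.04 under the male label. The receptor past the lower threshold was Avpr2, the renal vasopressin receptor, named here after its values were seen. It gave 382 on the Sham male array and 6.01 to 11.7 on the others, which were dim. Its changes are thus only bounds, at most 0.072-fold on the arrays labelled male and at most 0.085-fold for Sham female over Sham male. The brighter of its 2 probes was read.

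Of 24 other hypothalamic neuropeptide genes, 17 were well above background on all 4 arrays. On the arrays labelled male 1 of 19 was past the upper threshold, beside 4.08% of all probes compared. On those labelled female 2 of 20 were past the lower one, beside 3.31% of all probes compared. The medians were -0.06 and 0.01. Pdyn, the precursor of the dynorphins, gave 39.6, 55.6, 38.1 and 33.6 on the Sham male, Sham female, labelled TiO2-H male and labelled TiO2-H female arrays, with log2 fold changes of -0.15 and -0.86. Ucn3, which encodes the CRH-family peptide urocortin 3, gave 24.1, 27.5, 389 and 37.9 and was the gene past the upper threshold. Both Sham signals of Ucn3 were dim, as for Gh, so its change on the arrays labelled male is only a bound (at least 11.95-fold). Ucn3 was named after its values were seen because it shared the bright array of Gh and Pomc. That likeness was thus selected, and a shared pattern was not tested.

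Of 19 hypothalamic transcription factors, 16 were well above background on all 4 arrays. On the arrays labelled male 1 was past the lower threshold, beside 3.29% of all probes compared. None passed on those labelled female, beside 5.96% of all probes compared. Rax, a factor of hypothalamic progenitors and tanycytes, gave 46.7, 36.0, 35.5 and 58.4, with log2 fold changes of -0.49 and 0.57. Its signals were also near the lowest ones well above background, and the Sham female array differed from the Sham male array by -0.35. The 10 genes of peptide processing and secretory granules were well above background on all arrays and none passed a threshold. The shares of all probes compared were 4.08% (upper) and 3.29% (lower) on the arrays labelled male and 5.96% (either) on those labelled female. After scaling, 2 of these 10 genes lay above and 2 below both Sham arrays on both TiO2-H arrays, beside 28.9% and 25.8% of all probes. Without scaling 7 of them lay above and 0 below, and no share of all probes was counted for that setting. Pcsk1, the convertase that cuts Pomc to ACTH, gave 188, 191, 231 and 242 and was above, by log2 fold changes of 0.20 and 0.21. Pcsk2, the convertase that cuts further to melanocyte-stimulating hormone, was below, by log2 fold changes of -0.16 and -0.07, and is named after its values were seen. No gene of any list was past the same threshold on the arrays labelled male and on those labelled female, and none had an adjusted limma p under 0.05.

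**Figure D4:**
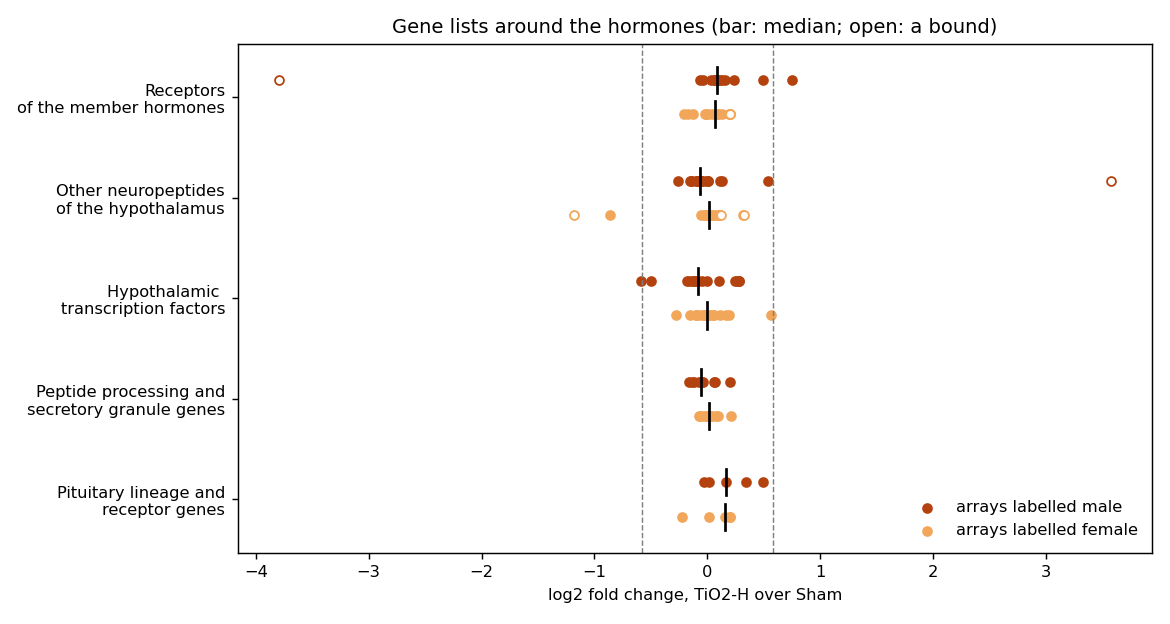
Log2 fold change of TiO2-H over Sham for the genes of 5 lists on the arrays labelled male and labelled female, 1 point per gene, with the list's median as a bar and open points for bounds. Dashed lines mark 1.5-fold and 0.67-fold; the medians lie between -0.09 and 0.17, and the points farthest out are single genes.

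Markers of other cell types were read beside the members. Of 6 choroid plexus, 6 erythroid and 4 olfactory epithelium genes, none of those compared passed a threshold between TiO2-H and Sham. Of all probes compared, 4.08% passed the upper and 3.29% the lower on the arrays labelled male, and 5.96% either on those labelled female. The lists here, muscle included, are too small for such counts to be set apart from those shares. Of 6 skeletal muscle genes, 0 of 5 compared passed on the arrays labelled male and 1 of 6 on those labelled female (Ckm, past the lower threshold, named after its values were seen). Among them Myl1 was highest on the array labelled TiO2-H male (135, against 72.4 to 85.6 on the others; log2 fold change 0.56). After scaling, the 3 erythroid genes well above background throughout were below both Sham arrays on both TiO2-H arrays, beside 25.8% of all probes. Without scaling 2 of the 3 genes were below, and no share of all probes was counted for that setting. Hbb-bt lay below by log2 fold changes of -0.26 and -0.28. Kl (choroid plexus) changed by -0.44 and 0.30 on the arrays labelled male and female. It was past the lower threshold between the Sham arrays, at -0.70. Omp (olfactory epithelium) changed by -0.03 and 0.27 on the arrays labelled male and female. The part of these cells in the member values was not tested.

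The genes most like a member over the 4 arrays were named for Pomc and Agrp, the members with the widest range among those well above background throughout. Likeness was the Euclidean distance between log2 values centred on each gene's mean, over 14622 genes and 4 arrays. Nearest to Pomc were 1700012D14Rik (distance 0.065), Olfr1030 (0.093) and Ubr3 (0.095). Each was highest on the array labelled TiO2-H male, which follows from their choice by likeness to Pomc. Ubr3, for instance, gave 71.5, 72.3, 118 and 68.6. Nearest to Agrp were Aifm2, Lyrm9 and Cacna1h, at distances of 0.019 to 0.021, within a range of 0.21 on the log2 scale for Agrp itself.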

How the data were processed

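Total RNA of whole newborn brain was hybridized to 4 one-color arrays, 1 pool per group. The deposited files hold intensity values made by the authors with Feature Extraction 10.10.1.1, which subtracts background. For all 59305 spots that are not controls, the deposited table repeats the processed signal. The log2 processed signal minus the log2 75th percentile of each array was used, without outlier spots, and spots of a probe were averaged. Compared were probes with 1 or both arrays of the pair well above background; a dim value was raised to the lowest signal well above background on its array (23.3 to 31.7). The thresholds of 1.5-fold and 0.67-fold are those of the study's methods. Fold changes within a label have no replicates and no test. The exposures were tested with limma 3.58.1 (R 4.3.3) and Benjamini-Hochberg adjustment over all probes. Python 3.11.15, pandas 2.3.3 and numpy 2.4.6 were used for the rest. The scripts were first run on simulated data, with noise as between the Sham arrays and 200 probes changed 3-fold. That run does not show how often smaller changes would be found. The samples are pools, so p-values measure the spread between arrays only, and precision is limited by the number of arrays.

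Accessions were named through a RefSeq table (GRCm38.p6) that held 98.0% of the NM and NR accessions. A gene of a list was represented by its brightest probe, and the sex-linked and cell marker lists were read in the same way. Named were all members; from each list, genes past the same threshold under both labels or, if none, the gene well above background on all arrays with the largest mean absolute change; and for the 2 members of widest range the 3 genes nearest in pattern. The members and lists were chosen with earlier results of these data known. Alternatives were no scaling, quantile normalization, normexp (offset 50), the deposited table, outlier spots kept, other filters and floors, a 2-fold threshold, the mean of a gene's probes, crossed arrays, sex as a term and each array left out. Methylation was not analysed here, and 1 gene of the marker lists is not reported here.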

Additional observations from a re-analysis of the deposited data

How the results depend on the processing

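The count of 2 members past a threshold on the arrays labelled male was 1 under normexp on median signals, where Pomc fell just below 1.5-fold; 1 when a probe had to be well above background on both arrays, which left Gh out; and 1 at a threshold of 2-fold, which left Pomc out. It was 2 under the other alternatives, crossed arrays included. The counts on the arrays labelled female and between the Sham arrays were 0 under every alternative run, and limma found 0 probes with an adjusted p under 0.05 under all 14, each array left out included (0 to 0), with the lowest adjusted p between 0.147 and 0.531. At an unadjusted p under 0.05 limma counted 2982 to 8306 probes. Over the alternatives, Pomc on the arrays labelled male had log2 fold changes of 0.58 to 0.74. The bound of Gh was lowest, at least 4.55-fold, under normexp on median signals. Of 170 member fold changes, 154 kept their direction, a count that overstates stability because many could not change. The deposited table, outlier spots kept and other filters returned the main value of each member compared, and so did no floor except for Gh. Without scaling, Pomc, Agrp, Oxt, Hcrt and Cartpt on the arrays labelled female turned to log2 fold changes of 0.05, 0.04, 0.03, 0.12 and 0.02, and Agrp, Trh, Hcrt, Pmch and Cartpt on the arrays labelled male to 0.0040, 0.09, 0.05, 0.0092 and 0.02. No mean signal was held in the columns used, so normexp was run on median signals. With sex as a term, which pairs each TiO2-H pool with a Sham pool as labelled or crossed, the lowest adjusted p by limma was 0.492 and 0.531. The labels give no replicate numbers that could pair pools otherwise. Signal over background limited Gh, which was measured on 1 array.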
